A study of Mus musculus with 12 samples.

Results

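L1Md classes are the young, mouse-specific subfamilies of the LINE-1 (L1) retrotransposon, and they were taken as every row of the repeat expression table whose name starts with L1Md_. The rule gave 6 classes, L1Md_A, L1Md_F, L1Md_F2, L1Md_F3, L1Md_Gf and L1Md_T, out of 1217 repeat classes, and all 6 were among the 939 classes tested. The data are poly(A) RNA-seq of mouse embryonic stem cells (ESCs) lacking Tet2, grown without feeders and rescued with a PiggyBac transgene for either wild-type (WT) TET2 or a catalytic mutant TET2. All 12 libraries carry an shRNA against Setdb1, delivered by lentivirus and selected with puromycin for 3 days starting 48 h after infection. The 4 groups of 3 libraries are WT naïve, mutant naïve, WT primed and mutant primed, where naïve cells were grown in medium with LIF and inhibitors of MEK and GSK3 (the 2i labels) and primed cells in 15% serum with LIF. Every group therefore shares the Tet2 deletion, a transgene and the Setdb1 knockdown, and no library with a non-targeting shRNA was analysed here, so the data compare TET2 forms and media within SETDB1-depleted cells. Nothing in the labels says whether the 3 libraries of a group come from separate cultures or separately derived rescue lines, so the p-values measure the spread between these libraries.

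A full-length L1 element is transcribed from its own internal promoter at the 5′ end and encodes ORF1p, which binds L1 RNA, and ORF2p, which holds the endonuclease and reverse transcriptase used to copy the RNA back into the genome. In mouse, the A, T, Gf and F types differ mainly in the repeated monomers that make up this promoter. The promoters are rich in CpG, and in ESCs they are known targets of DNA methylation, of TET proteins and of H3K9 methylation, the mark laid down by SETDB1. Most copies are truncated at the 5′ end, so reads assigned to a class can come from its own promoter or from a transcript that runs through a copy.

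The study's own RT-qPCR primers for L1 are given here as an example of how many genomic sites a primer pair can match. Whether the matched sites lie in the L1Md classes was not examined. Capitals mark CpG dinucleotides, the sites of DNA methylation.
L1TF_F: gcctaagccacagcagca
L1TF_R: gctgtcaggttctctggCG
L1ORF1_F: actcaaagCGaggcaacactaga
L1ORF1_R: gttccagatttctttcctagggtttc
By exact matching to the mm9 genome, the L1TF pair bounds 2902 products of at most 500 bases, of which 2505 are 102 bases long. These products have 503 distinct sequences, the commonest found in 1146 of them. The L1ORF1 pair bounds 1825 products, all of 53 bases, and 1820 of them have the same sequence. Its primers of 23 and 26 bases were matched exactly and fill most of that length, so little of the sequence could vary. Of the L1TF products, 740 (25.5%) overlap an annotated gene but only 6 touch an exon, and of the L1ORF1 products 470 overlap a gene and 2 touch an exon. Chromosome X holds 314 of the L1TF and 209 of the L1ORF1 products. A 75-bp read with equally good hits was placed at random among them, so all values below are sums over a class. The subfamilies may exchange reads with one another, and the share of reads with more than a single best hit was not measured.

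Between 8066662 and 21335933 gene reads and between 3156928 and 13718028 repeat reads were recovered per library, with 60284 to 297287 reads on L1Md classes. The libraries numbered 3 stood apart from the others before any comparison between groups. Their ribosomal RNA rows took 37.7% (WT naïve), 68.8% (mutant naïve), 76.3% (WT primed) and 46.7% (mutant primed) of repeat reads, against 74.3% to 88.1% in the other 8 libraries. Their median class value lay between 7.60 and 7.81, against 7.07 to 7.40 in the others. The main results on L1Md classes, families and genes are therefore also given without the 4 libraries numbered 3, an alternative chosen after the data were seen.

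L1Md_T supplied most of the L1Md signal, with 68.5% of all L1Md reads over the 12 libraries, followed by L1Md_F2 with 17.8%, L1Md_A with 7.17%, L1Md_F3 with 3.00%, L1Md_F with 1.84% and L1Md_Gf with 1.70%. These are shares of pooled reads and depend on how many bases each class covers in the genome, so they say nothing about the output of single copies. L1Md_T had 41685 to 204998 reads per library and ranked between 3 and 9 among all repeat classes, whereas L1Md_Gf had 586 to 6591 reads. The order of L1Md_T above L1Md_F2 above L1Md_A held in 12 of 12 libraries. L1Md_A was above L1Md_F3 and L1Md_F3 above L1Md_F in every library too, whereas L1Md_F was above L1Md_Gf in 9 of 12, with a difference within a library of -0.14 to 0.85 on the log2 scale.

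On the deposited log2 scale, L1Md_T was at 15.77, 15.79 and 16.37 in the 3 WT naïve libraries and at 15.47, 15.77 and 16.07 in the mutant naïve libraries. It was at 16.93, 16.52 and 16.90 in the WT primed libraries and at 16.46, 16.58 and 16.88 in the mutant primed libraries. Every primed library was above every naïve library, whereas the WT and mutant lines overlapped in both media. L1Md_F2, the second class by reads, was at 13.97, 14.07 and 14.55 (WT naïve), 13.93, 14.39 and 14.23 (mutant naïve), 14.38, 14.76 and 14.69 (WT primed) and 14.28, 14.77 and 14.72 (mutant primed). Its groups overlapped in each comparison. L1Md_A was at 12.09, 12.24 and 13.94 in WT naïve, 11.92, 11.96 and 13.13 in mutant naïve, 13.07, 12.92 and 13.94 in WT primed and 12.25, 12.84 and 14.12 in mutant primed cells. The last value of each set, from the library numbered 3, was the highest of its group, and with it the groups overlapped. The same held for L1Md_Gf, at 9.64, 9.87 and 11.65 in WT naïve, 9.18, 9.68 and 11.25 in mutant naïve, 11.12, 10.89 and 11.94 in WT primed and 10.37, 10.76 and 12.16 in mutant primed cells. L1Md_F (10.04 to 12.09) and L1Md_F3 (10.88 to 12.72) spanned similar ranges, with the library numbered 3 highest in 4 of 4 groups for each. Of all tested classes, 56.3% were highest in the library numbered 3 in every group.

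**Figure D1:**
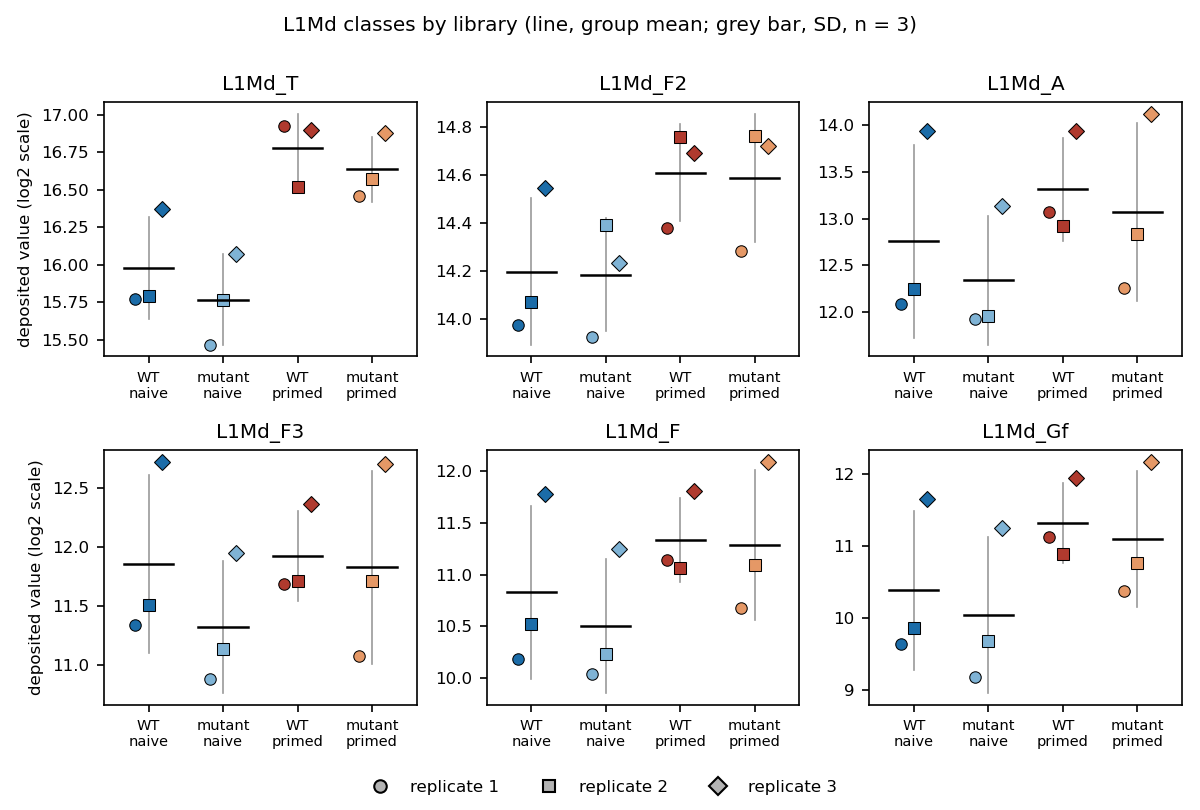
Deposited log2-scale value of each L1Md class (vertical axis, one panel a class with its own scale) in the 4 groups; symbols are single libraries by replicate number, black lines group means and grey bars SDs (n = 3). L1Md_T lies below 16.4 in every naïve library and above 16.4 in every primed library, and for L1Md_A, L1Md_F3, L1Md_F and L1Md_Gf replicate 3 is the highest of its group in all 4 groups.

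Summed over the 6 classes and scaled to gene reads of the same library, L1Md RNA was higher in serum than in 2i in both lines. There were 5975, 7030 and 9050 L1Md reads per 1000000 gene reads in WT naïve and 5152, 7244 and 7882 in mutant naïve cells, against 14921, 11981 and 13934 in WT primed and 11336, 13049 and 12033 in mutant primed cells. The lowest primed library was thus above the highest naïve library, and the ratio of group means (primed over naïve) was 1.85 in the WT line and 1.80 in the mutant line. The WT to mutant ratio was 1.09 in naïve and 1.12 in primed cells, with overlapping libraries. L1Md_T made up 79.1% of the WT and 76.6% of the mutant increase from naïve to primed on this scale, with 4815 and 4423 reads per 1000000 gene reads in naïve and 9766 and 8541 in primed cells (WT and mutant means). As a share of repeat reads outside the ribosomal RNA rows, L1Md classes took 4.24% to 5.64% in the 6 naïve libraries and 7.54% to 10.6% in the 6 primed libraries. A share of all repeat reads follows the ribosomal RNA fraction instead, and on that denominator the primed to naïve ratio was 0.894 in the WT and 1.71 in the mutant line. Both rested on the libraries numbered 3, and without them the ratios were 1.32 and 1.19, the mean share going from 1.85% to 1.06% in WT naïve and from 2.12% to 1.17% in mutant primed cells. Per 1000000 gene reads the ratios without these libraries were 2.07 and 1.97. These sums were described without a test.

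**Figure D2:**
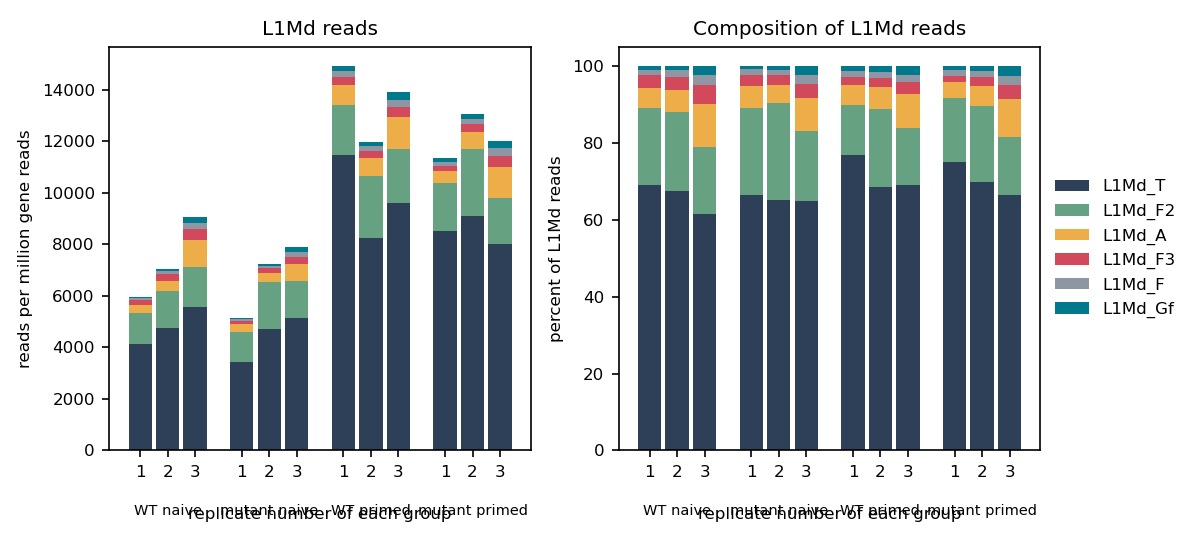
Left, L1Md reads per 1000000 gene reads in each library, stacked by class; right, each class as a percent of the L1Md reads of its library, with libraries ordered by group and replicate number. The 6 primed bars end at 11336 or above and the 6 naïve bars at 9050 or below, with L1Md_T as the tallest segment throughout; L1Md_A, L1Md_F3, L1Md_F and L1Md_Gf widen in replicate 3 of each group.

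The comparison of naïve with primed cells asks how the medium affects L1Md RNA when SETDB1 is depleted. All 6 classes were lower in naïve cells in both lines. In the WT line the naïve minus primed difference (log2) was -0.94 ± 0.52 for L1Md_Gf, -0.80 ± 0.29 for L1Md_T, -0.56 ± 0.47 for L1Md_A, -0.51 ± 0.40 for L1Md_F, -0.41 ± 0.27 for L1Md_F2 and -0.06 ± 0.39 for L1Md_F3 (SE from limma). In the mutant line it was -1.06 ± 0.52 for L1Md_Gf, -0.87 ± 0.29 for L1Md_T, -0.78 ± 0.40 for L1Md_F, -0.73 ± 0.47 for L1Md_A, -0.51 ± 0.39 for L1Md_F3 and -0.40 ± 0.27 for L1Md_F2. The median over the 6 classes was -0.53 (WT) and -0.76 (mutant), against 0.06 and -0.04 over all 939 tested classes, 56.2% and 44.7% of which were higher in naïve cells. L1Md_Gf and L1Md_T stood at percentiles 1.7 and 2.8 of all classes in the WT line and at 1.5 and 3.1 in the mutant line. The naïve groups of the 2 lines are separate libraries, as are the primed groups.

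None of these differences passed the call rule, a Benjamini-Hochberg adjusted p under 0.05 over all classes together with a log2 difference above 1. L1Md_T had the smallest adjusted p, 0.196 in the WT and 0.140 in the mutant line (limma), and it was the 1 member with an unadjusted p under 0.05 in each. Of all classes, 2.34% were called in the WT line (0.745% lower in naïve) and 3.41% in the mutant line (1.06% lower in naïve), so 0 of 6 members is not set apart from the background. For L1Md_T the naïve and primed libraries did not overlap in either line, the case for 3.73% of all classes in the WT and 4.47% in the mutant line in this direction, and the exact two-sided permutation test gave its smallest possible p of 0.1 in both. The other 5 members overlapped. Of the classes called, 15 of 22 (WT) and 22 of 32 (mutant) were higher in naïve cells, and per 1000000 gene reads 12 of 28 and 21 of 37 were.

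The call for L1Md_T turned on the scaling. With values centred on the class median, with reads rescaled by medians of ratios, per 1000000 gene reads or per 1000000 repeat reads outside ribosomal RNA, its adjusted p was 0.00432 to 0.0109 in the WT and 0.00568 to 0.0119 in the mutant line (limma), with differences of -1.02 to -0.89 and -0.97 to -0.84. Per 1000000 gene reads it was called in the WT line, at -1.02 with adjusted p = 0.00953 (limma), where 1.7% of all classes were called lower in naïve cells. The mutant line gave -0.97 with adjusted p = 0.00891, just inside the limit of 1 and so not called, with 1.7% of classes called. The other members had an adjusted p of 0.0709 or more under each of these 4 scalings in both lines.

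Leaving out the 4 libraries numbered 3 lowered the SE of L1Md_Gf from 0.52 to 0.20. Without them, L1Md_Gf was called in both lines, at -1.26 (adjusted p = 5.8e-05, limma) with WT and -1.13 (adjusted p = 0.00016) with mutant TET2. This fit held only the 8 libraries numbered 1 and 2. Calls rose over all classes too, from 22 to 51 of 939 with WT and from 32 to 58 of 939 with mutant TET2. Adjusted p-values without the libraries numbered 3 were also under 0.05 for L1Md_T (-0.94 and -0.90), L1Md_A (-0.83 and -0.60) and L1Md_F (-0.75 and -0.75), none of which exceeded a difference of 1, whereas L1Md_F2 (0.0988 and 0.285) and L1Md_F3 (0.486 and 0.243) stayed above. The share of all classes under 0.05 with no limit on the difference was not counted for this set. Leaving out the WT naïve library numbered 3 alone was enough for L1Md_Gf to be called in the WT line, at -1.57 with adjusted p = 0.0337 (limma). There 23 of 939 classes were called. Libraries sharing a number deviated together across media in the WT line, and with the number as a block 42 classes were called there in place of 22. The blocked adjusted p was 0.0017 for L1Md_Gf and 0.00864 for L1Md_T, with the number of members called still at 0.

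**Figure D3:**
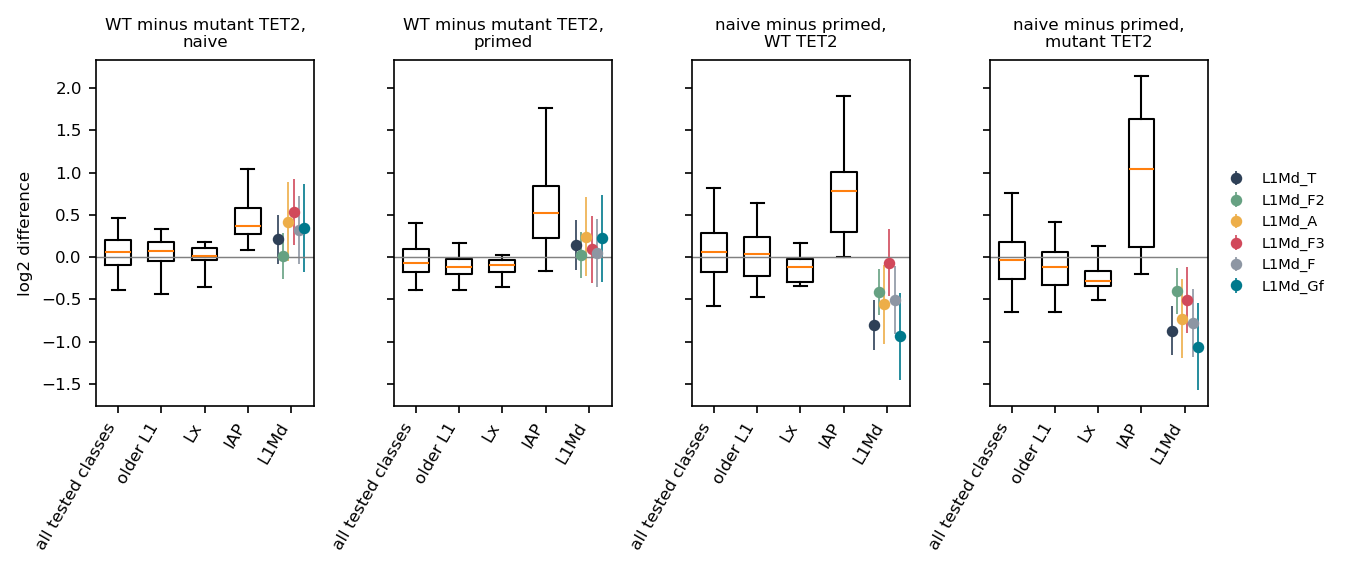
Log2 difference in each of the 4 comparisons for all tested classes, older L1, Lx and IAP classes (boxes, quartiles and median; whiskers, 5th to 95th percentile of classes) and for the 6 L1Md classes (points, with SE). In both naïve minus primed panels every L1Md point lies below 0, at -0.06 to -1.06, while the IAP box lies above 0, and in the WT minus mutant panels the points lie between 0.01 and 0.53 with error bars that mostly cross 0.

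The comparison of WT with mutant TET2 asks whether catalytic activity affects L1Md RNA in these cells. No L1Md class passed the test between the lines in either medium. In naïve cells the WT minus mutant difference was 0.53 ± 0.39 for L1Md_F3, 0.42 ± 0.47 for L1Md_A, 0.35 ± 0.52 for L1Md_Gf, 0.33 ± 0.40 for L1Md_F, 0.21 ± 0.29 for L1Md_T and 0.01 ± 0.27 for L1Md_F2, all with adjusted p = 0.999 (limma). In primed cells the differences ran from 0.02 ± 0.27 for L1Md_F2 to 0.24 ± 0.47 for L1Md_A, with adjusted p = 0.996. Their medians were 0.34 and 0.12, against 0.06 and -0.06 over all classes, 59.7% and 39.2% of which were higher with WT. The share of classes called was 0% in naïve and 0.319% in primed cells, and 0 members had an unadjusted p under 0.05 in either medium (limma). WT and mutant libraries overlapped for all 6 members in both media, whereas 3.19% of classes in naïve and 1.92% in primed cells were without overlap and higher with WT.

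Within same-numbered naïve libraries the WT value was higher in 3 of 3 pairs for L1Md_A, L1Md_F, L1Md_F3, L1Md_Gf and L1Md_T, and in 2 of 3 for L1Md_F2. The share of all classes with 3 of 3 pairs was not counted, and 59.7% of them had a higher mean with WT. After group means were removed, L1Md_A, L1Md_F, L1Md_F3 and L1Md_Gf moved together (Pearson's r of 0.973 to 0.992), so they are not separate observations. The naïve libraries of the 2 lines did deviate together by number, and with the number as a block the smallest adjusted p of a member was 0.204, for L1Md_F3, while the count over all classes went from 0 to 1. In primed cells the WT value was higher in 2 of 3 pairs for L1Md_A, L1Md_Gf and L1Md_T, and in 1 of 3 for the others. Without the libraries numbered 3 the differences were -0.14 to 0.42 in naïve and 0.05 to 0.45 in primed cells, with 0 members called. Without WT naïve library 3 alone, L1Md_A, L1Md_F, L1Md_F2 and L1Md_Gf were lower with WT (-0.29 to -0.15), and without mutant naïve library 1 this was true of L1Md_F2 (-0.12) and L1Md_Gf (-0.080). In primed cells all members but L1Md_T were lower with WT without mutant primed library 1 (-0.29 to -0.13) or WT primed library 3 (-0.18 to -0.020), as were L1Md_F without mutant primed library 2 (-0.046) and L1Md_F2 without WT primed library 2 (-0.053). The direction in naïve cells also turned for L1Md_F2, which was lower with WT under each of the 4 other scalings (-0.19 to -0.03). Whether the WT minus mutant difference itself changed with the medium was tested as an interaction, and 0 of 6 members and 0% of all classes were called, with 0 members and 4 of 939 classes at an unadjusted p under 0.05 (limma).

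The make-up of L1Md RNA differed between libraries of one group. L1Md_A took 8.49% to 11.4% of L1Md reads in the libraries numbered 3 and 4.06% to 5.75% in the other 8, and L1Md_Gf took 2.22% to 2.53% against 0.838% to 1.38%. On the deposited scale, replicate 3 minus the mean of replicates 1 and 2 was 0.93 to 1.89 over the 4 groups for L1Md_Gf, 0.94 to 1.78 for L1Md_A, 0.70 to 1.42 for L1Md_F and 0.66 to 1.31 for L1Md_F3, but 0.17 to 0.59 for L1Md_T and 0.08 to 0.52 for L1Md_F2. The median of all tested classes moved by 0.36 to 0.71. After rescaling by medians of ratios, which brings the all-class median to between -0.02 and 0.01, the first 4 classes were still higher in replicate 3 in 4 of 4 groups (0.27 to 1.34), whereas L1Md_T (-0.43 to -0.04) and L1Md_F2 (-0.60 to -0.11) were lower in 4 of 4. Of all 939 tested classes, 167 (17.8%) were above 0 in every group on this scale. The split of the 6 classes into these 2 sets was seen in the data and carries no test. In the same libraries the 2 LTR classes of two-cell-like cells, MERVL-int and MT2_Mm, were higher by a median of 0.25 to 1.43 on the rescaled values. Lx classes, an L1 lineage, were also higher in every group, by a median of 0.02 to 0.34, with 6 of 16 classes above 0 in all groups. The medians were -0.01 to 0.18 for older L1 classes and -0.24 to 0.14 for IAP classes. The part of the ribosomal RNA fraction in these differences was not tested.

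**Figure D4:**
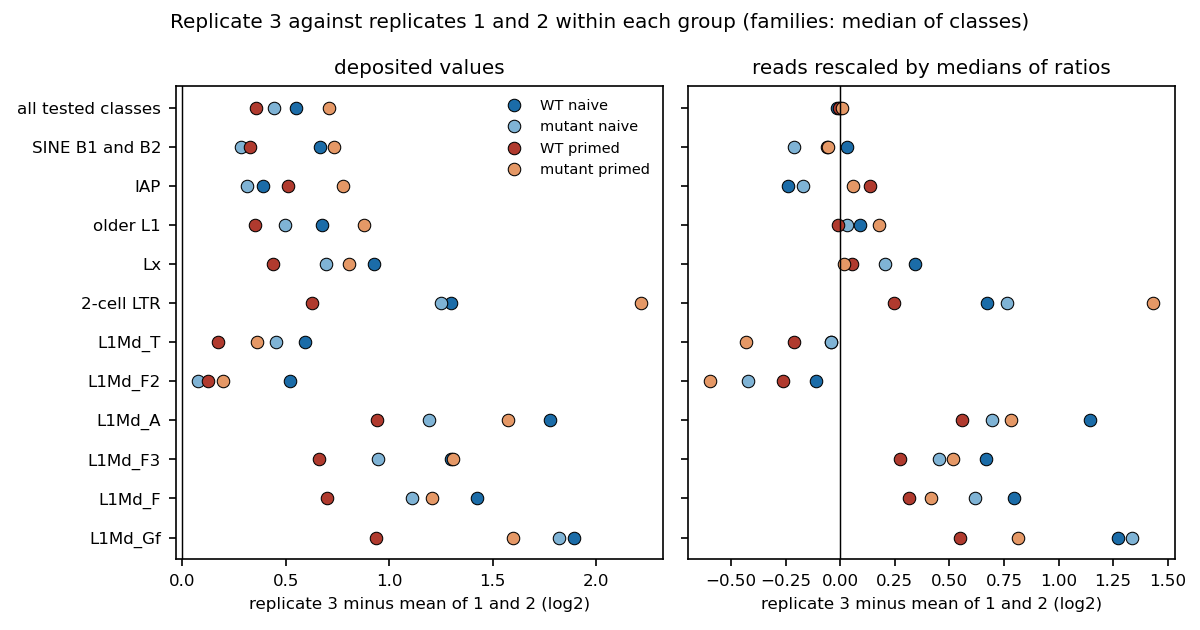
Value in replicate 3 minus the mean of replicates 1 and 2 (horizontal axis, log2) for each L1Md class and for the median of other repeat families, with 1 point a group, on the deposited scale (left) and after rescaling by medians of ratios (right). On the right the 4 classes L1Md_A, L1Md_F3, L1Md_F and L1Md_Gf lie above 0 in every group and L1Md_T and L1Md_F2 below 0 in every group.

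Between groups, 2 differences in composition were without overlap. L1Md_F3 took 3.84% ± 0.91 of L1Md reads in WT naïve and 2.47% ± 0.47 in WT primed cells, and L1Md_T took 65.5% ± 0.75 in mutant naïve and 70.5% ± 4.30 in mutant primed cells (SD, n = 3 each; exact two-sided permutation test, p = 0.1 in both, the smallest that 3 against 3 can give). They are 2 of 24 such comparisons of a class share. With that smallest p, a few of 24 can separate with no difference between the groups. Leaving out the libraries numbered 3 cannot create an overlap. Without them the WT naïve and WT primed means of L1Md_F3 were 3.32% and 2.23%. Those of L1Md_T were 65.8% in mutant naïve and 72.4% in mutant primed cells. In that smaller set the shares of all classes but L1Md_F were without overlap in at least 1 comparison, and those of L1Md_Gf in each. With fewer libraries a group, ranges separate more often with no difference between groups, so nothing is drawn from this. In the WT line the L1Md_T share was 66.1% ± 4.0 and 71.5% ± 4.6, with overlap.

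The same difference between media was taken over other LINE, LTR and SINE classes. Older L1 classes (84 tested) had a median naïve minus primed difference of 0.03 in the WT and -0.12 in the mutant line, and Lx classes (16), an older rodent L1 lineage, had -0.12 and -0.28, with 13 and 15 of 16 lower in naïve cells. The 2 LTR classes of two-cell-like cells, MERVL-int and MT2_Mm, were also lower, with medians of -0.16 and -0.77 and 0 called. IAP classes, endogenous retroviruses that SETDB1 is known to silence in ESCs, went the opposite way from L1Md, with medians of 0.79 and 1.04 over 16 classes and with 3 and 8 of them called. For B1 and B2 SINEs (10 classes) the medians were 0.04 and -0.07. Per 1000000 gene reads, which moves the median of all classes to -0.15 and -0.14, the L1Md medians were -0.75 and -0.86 and those of IAP 0.60 and 0.99. Without the libraries numbered 3, the medians (WT and mutant) were -0.79 and -0.68 for L1Md, -0.26 and -0.24 for Lx, -0.39 and -0.45 for the two-cell LTR classes and 0.85 and 1.25 for IAP. These medians are descriptions, and no family was tested against another.

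The 4 small or medium classes followed each other closely over the 12 libraries, with Pearson's r of 0.915 to 0.990 for pairs among L1Md_A, L1Md_F, L1Md_F3 and L1Md_Gf. With the other members, L1Md_F2 gave 0.643 to 0.793 and L1Md_T gave 0.640 to 0.852. With group means removed, L1Md_T was closer to those 4 classes, at 0.875 to 0.927, while L1Md_F2 gave 0.552 to 0.714 with the other members. The non-member classes most like the L1Md mean were ORR1D2-int (r = 0.971), ORR1A2-int (0.968), LTR78 (0.965), Lx2A1 (0.955) and L1_Mus4 (0.951), against a median of 0.561 for all other tested classes. After group means were taken out, the closest were Lx9 (0.998), RLTR11A2 (0.992), ORR1A2-int (0.991), IAPLTR3-int (0.986) and L1VL1 (0.984), with a median of 0.772. These points share library, depth and the shift of the libraries numbered 3, so the values describe which rows move together and carry no p.

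Genes that act on L1 were taken from a list of 33, all tested, in the gene table on its own log2 scale. Setdb1, the target of the shRNA in every library, was at 7.73, 7.51 and 8.21 in WT naïve, 7.56, 7.46 and 8.04 in mutant naïve, 8.19, 8.22 and 8.40 in WT primed and 7.52, 8.26 and 8.55 in mutant primed cells (114 to 585 reads). It was highest in the library numbered 3 in 4 of 4 groups, as were Tet2, 2.97% of all tested genes and the classes L1Md_A, L1Md_F, L1Md_F3 and L1Md_Gf, and its naïve minus primed difference was -0.45 ± 0.25 with WT and -0.42 ± 0.25 with mutant TET2 (adjusted p = 0.167 and 0.201, limma). Without control shRNA libraries the depth of the knockdown could not be measured. Tet2, which includes transgene reads, was at 12.73, 13.09 and 14 in WT naïve and 10.60, 10.81 and 11.95 in mutant naïve cells, and at 14.81, 14.58 and 15.09 in WT primed and 12.50, 13.20 and 13.27 in mutant primed cells. The WT transgene libraries were thus higher by 2.16 in naïve and 1.84 in primed cells (adjusted p = 0.0154 and 0.0297, limma), so the lines differ in the amount of Tet2 RNA as well as in catalytic activity. This difference is in RNA only, and by western blot the paper found similar amounts of TET2 protein in the WT and mutant rescue lines. Tet2 was the 1 gene of the 33 called in these comparisons, where 0.0987% of all genes in naïve and 0.254% in primed cells were called at an adjusted p under 0.05. Without the libraries numbered 3 the differences were 2.21 (adjusted p = 0.000895, limma) and 1.84 (0.00206), and a block for the library number gave 2.16 with an adjusted p of 2.99e-06 in naïve cells, where libraries deviated together by number. With 1 library left out, the call in naïve cells was lost without WT naïve library 3 (1.79, adjusted p = 0.0809) or mutant naïve library 1 (1.90, 0.132) or 2 (2.00, 0.121). In primed cells it was lost without any 1 of WT primed libraries 1 to 3 (1.71 to 1.96, adjusted p of 0.0653 to 0.14, limma) or mutant primed library 1 (1.59, 0.151) or 2 (1.94, 0.0512).

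Between media, 11 of the 33 genes changed in the WT line (2 higher and 9 lower in naïve cells) and 12 in the mutant line (2 higher and 10 lower). Without the libraries numbered 3 these were 11 and 11, with Tdg lost in the mutant line. Among all genes, 18.6% were higher and 17.3% lower in the WT line, and 18.3% and 16.9% in the mutant line. The de novo methylation genes were lower in naïve cells, by the most for Dnmt3l, a cofactor without catalytic activity, at -5.18 (WT) and -5.17 (mutant). Dnmt3b was at -2.21 and -2.45 and Dnmt3a, the other de novo methyltransferase, at -0.91 and -1.30. Trim28, which recruits SETDB1 to its targets, was at -0.94 and -1.08, and Ehmt1, a subunit of the G9a/GLP H3K9 methyltransferase, was at -0.57 and -0.48. Tet2 itself was at -1.55 and -1.87. Of the genes acting on L1 RNA or cDNA, Apobec3, a cytidine deaminase, was higher in naïve cells by 1.40 and 1.39, and the RNA helicase gene Mov10 by 0.66 and 0.96. The dNTPase gene Samhd1 (-0.60 and -0.57) and Tex19.1 (-0.84 and -0.96), a germline and pluripotency gene that limits L1 mobilisation, were lower. Yy1, whose product binds L1 promoters, was at -0.48 and -0.89. Tdg, the glycosylase that removes oxidised 5-methylcytosine, was lower in the mutant line (-0.45, adjusted p = 0.0415, limma), and its value in the WT line was -0.06. The other genes of the list, among them Dnmt1, Uhrf1, Ehmt2, Suv39h1 and Suv39h2, did not pass in either line.

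**Figure D5:**
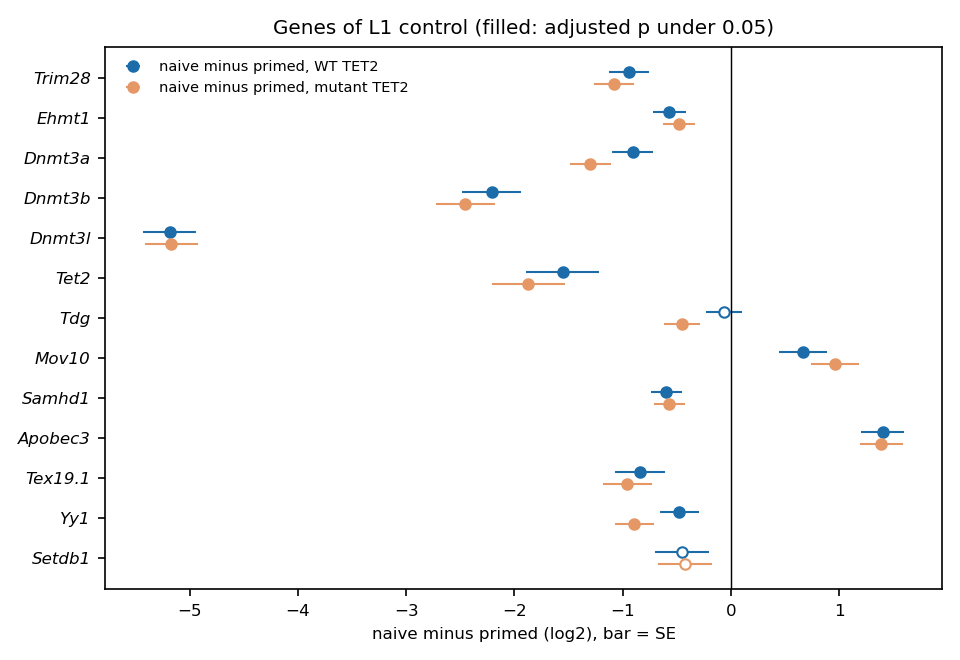
Naïve minus primed difference (log2, with SE) of the L1 control genes called in at least 1 comparison and of Setdb1, in the WT line and in the mutant line; filled points have an adjusted p under 0.05. Dnmt3l lies at -5.18 and -5.17, Apobec3 and Mov10 are the genes above 0, and Setdb1 is open in both lines.

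The pluripotency genes Pou5f1, Sox2 and Nanog had group means of 12.52 to 14.23 in all 4 groups. Of the naïve markers, Prdm14 was higher in naïve cells (1.64 and 1.63) while Zfp42 was lower (-0.94 and -1.29) and Esrrb and Klf4 did not pass. The primed marker Otx2 was lower in naïve cells (-2.75 and -3.29), as were Dnmt3b and Dnmt3l, so 4 of the 5 markers of the 2 states that changed in both lines did so in the direction of their label. Of the trophoblast, mesoderm and fibroblast markers, Cdx2, Elf5, T, Mixl1, Col1a1 and Col1a2 had group means of 3.81, the lowest value of the table, to 4.96 and were too low to be tested. Among them T was at 4.96 and 4.80 in naïve and 3.95 and 4.10 in primed cells (WT and mutant). Thy1, a surface protein of fibroblasts and other cells, had group means of 5.07 to 6.47 and was higher in naïve cells by 0.85 (adjusted p = 0.00474, limma) with WT and 1.40 (9.34e-05) with mutant TET2, the opposite direction to L1Md, and by 0.88 and 1.40 without the libraries numbered 3. The endoderm markers Gata6, Gata4 and Sox17 lay between 4.46 and 5.56. The two-cell-like genes Zscan4c, Zscan4d and Zscan4f were at 5.38 to 6.02 with WT and 6.47 to 7.37 with mutant TET2. Of these, Zscan4d in primed cells passed the test (WT minus mutant -1.99, adjusted p = 0.0336, limma, and -1.49 with 0.0485 without the libraries numbered 3), while no L1Md class passed it between those groups. The part of these markers in the L1Md values was not tested.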

How the data were processed

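Per the labels and the study's methods, the authors trimmed single-end 75-bp reads from non-directional poly(A) libraries with Trim Galore 0.3.3, aligned them to mm9 with TopHat2 2.0.9 keeping 1 random position for a multi-hit read, counted genes and RepeatMasker classes (all copies pooled) and deposited DESeq2 variance-stabilised values, which are on a log2 scale. Here the transformation was inverted to whole reads (100% of values within 0.05 of a whole number). The main test was limma 3.58.1 (R 4.3.3) on the deposited values, with 4 groups in one fit, a variance trend, rows kept at a mean at least 1 above the lowest value (939 of 1217 classes), and Benjamini-Hochberg adjustment over all rows. Calls for repeat classes required both an adjusted p below 0.05 and a log2 difference larger than 1, and those for genes the first of these. Single values used an exact permutation test. Alternatives covered filters, the trend, 4 scalings (0.5 reads added before logs of reads), a replicate block and left-out libraries. The scripts were tested on simulated data.

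Over repeat classes, deviations from group means of same-numbered libraries correlated at 0.417, 0.289 and 0.485 between the naïve lines. Between media in the WT line they correlated at 0.135, 0.158 and 0.300. The main test had no block, and for these comparisons a fit with the number as a block is given beside it. Over genes, the values between media in the WT line were 0.220, 0.145 and -0.016, so not all were over 0.1. Correlations between the primed lines and between media in the mutant line were not all over 0.1. Over repeat classes those between media in the mutant line were 0.199, 0.053 and 0.195, with a mean of 0.149 against 0.198 in the WT line. Members and gene lists were chosen with earlier results of these data known. All L1Md rows were named, with the 5 classes most correlated with their mean on each measure, every L1 control gene called in any comparison, Setdb1, Tet2 and the cell type markers; Tfcp2l1, Tcstv1 and Tcstv3 were not matched in the table.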

Additional observations from a re-analysis of the deposited data

How the results depend on the processing

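All 6 L1Md classes stayed lower in naïve cells in both lines under every alternative run, except L1Md_F3 in the WT line, which ranged from -0.50 to 0.20 when 1 library was left out and was above 0 without WT naïve library 1 or 2 or WT primed library 3. Between media, the number of L1Md classes called, 0 in both lines, became 1 in the WT line per 1000000 gene reads and ranged from 0 to 1 when 1 library was left out there. Without the 4 libraries numbered 3, a choice made after the data were seen, it became 1 in each line, and 3 (WT) and 2 (mutant) when reads were also scaled per 1000000 gene reads. With the replicate number as a block it was 1 in the mutant line, whose numbers did not pair by the correlation rule and where 43 of 939 classes were called. With the block and scaling per 1000000 gene reads it was 2 (WT) and 1 (mutant). In the primed lines, which were also not paired, the block left 0 members called.

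Counts over all classes moved more. For naïve against primed cells in the WT line, the 22 classes called became 41 with medians of ratios, 34 per 1000000 repeat reads outside ribosomal RNA, 35 with the 6 libraries alone, 42 with the replicate block (45 per 1000000 gene reads) and 51 without the libraries numbered 3 (51 per 1000000 gene reads). In the mutant line 32 became 49 with medians of ratios, 54 with the block per 1000000 gene reads, and 58 and 56 without the libraries numbered 3. Leaving out 1 library gave 8 to 23 in the WT line, with 8 without WT naïve library 1 or WT primed library 2, 11 without WT naïve library 2 or WT primed library 1 and 12 without WT primed library 3. It gave 11 to 45 in the mutant line, with 14 and 13 without mutant naïve libraries 1 and 2 and 15 and 11 without mutant primed libraries 1 and 2. For WT against mutant TET2 in naïve cells, 0 became 1 with the block and without the libraries numbered 3, on either scale. In primed cells 3 became 5 without those libraries, and 1 to 3 when 1 library was left out, with 1 without WT primed library 3 or mutant primed library 1 or 2.

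The WT minus mutant difference of L1Md_F2 in naïve cells turned to -0.080 (centred), -0.033 (medians of ratios), -0.066 (per 1000000 gene reads, with and without the block) and -0.19 (outside ribosomal RNA), and to -0.14 and -0.16 without the libraries numbered 3, on the deposited scale and per 1000000 gene reads. On the latter its primed difference was -0.020. With 1 library left out, naïve differences ranged from -0.18 to 0.81 for L1Md_A, -0.15 to 0.69 for L1Md_F, -0.16 to 0.12 for L1Md_F2 and -0.29 to 0.95 for L1Md_Gf. Primed differences ranged from -0.17 to 0.77 for L1Md_A, -0.25 to 0.45 for L1Md_F, -0.13 to 0.14 for L1Md_F2, -0.29 to 0.53 for L1Md_F3 and -0.14 to 0.76 for L1Md_Gf. The number of L1 control genes called between the lines, 1 in each medium, was 0 to 1 in both with 1 library left out. Over all repeat reads, the L1Md share was 1.85% (WT naïve), 1.24% (mutant naïve), 1.66% (WT primed) and 2.12% (mutant primed). Causes were not tested. A planned limma-voom fit on reads recovered from the deposited log2 values is not reported, since count tools were kept to files that hold counts. The least-covered value of an L1Md class was 586 reads.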
